A study of Saccharomyces cerevisiae with 18 samples.

Results

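A set of 10 genes of Saccharomyces cerevisiae that are controlled by nitrogen catabolite repression were followed across strains of yeast that make diosgenin, a plant steroidal sapogenin. They were taken by identifier from tables of 6600 genes, and all 10 passed the filter on low counts that left 6131 genes for testing. They are GAP1 (YKR039W), MEP1 (YGR121C), MEP2 (YNL142W), MEP3 (YPR138C), PUT4 (YOR348C), PUT1 (YLR142W), PUT2 (YHR037W), DUR1,2 (YBR208C), DUR3 (YHL016C) and DAL80 (YKR034W). The strains LP085-Vc, LP104-17 and LP118 all carry the BY4742 background. Their genotypes, introduced genes and clonal origin are not given in the labels. Cells were grown in flasks at 30 °C in SD medium with 2% glucose, whose nitrogen source is not given, and were harvested 6 h and 24 h after dilution of an overnight culture. Each of the 6 strain-by-time groups had 3 libraries of total RNA, 18 in all. The labels do not say whether the 3 libraries of a group were separate cultures, so p-values measure the spread between these libraries, which may be technical.

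Nitrogen catabolite repression keeps yeast from making transporters and enzymes for poor nitrogen sources while a preferred source such as glutamine or ammonium is plentiful. The activators Gln3 and Gat1, zinc finger proteins of the GATA family, are then held out of the nucleus, Gln3 through Ure2 and under the influence of the TORC1 kinase. When preferred nitrogen runs low they enter the nucleus and bind short GATA sequences in front of their target genes, where the GATA repressors Dal80 and Gzf3 compete with them. Some targets need a second, pathway-specific signal: Put3 activates the proline genes in the presence of proline, and Dal81 with Dal82 activates the urea and allantoin genes.

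Libraries held between 5.12 and 7.55 counts in units of 1000000. Levels are given as CPM, counts per 1000000 counts, in TMM-scaled libraries, as mean ± SD of 3 libraries, and changes as log2 fold change ± standard error (SE). Calls come from edgeR's quasi-likelihood test at an adjusted p (Benjamini-Hochberg, over all 6131 genes) below 0.05. BY4742 is a haploid of mating type alpha. Markers of this type summed to between 380 and 1729 CPM in a library, and those of mating type a to between 15.1 and 61.1 CPM. No marker of either list was at 0. Marker levels do not show ploidy, and BAR1 of the type a list lies on chromosome IX. In LP118 the median log2 fold change of chromosome V genes was between -1.08 and -0.98 against the other strains, and that of chromosome IX genes between 0.88 and 1.02. None of the 10 genes lies on either chromosome. RNA came from whole cultures, in which less transcript per cell and fewer cells that carry the transcript cannot be told apart.

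The stretch before each gene is shown first because GATA factors bind short GATA sequences in front of their target genes. Whether the matches below act on these genes was not tested. In the 500 bases before the start codon, build R64, matches to GATAA on either strand were counted, and matches to the longer GATAAG, which are a subset of them. All 10 genes had at least 2 GATAA matches, against 44.6% of 5915 genes with a window of this length. GATAAG was present in 9 of the 10, against 22.8% of all genes, and at least 3 copies were present in 5 of the 10, against 0.558%. MEP2 had the most, with 7 copies of GATAAG and 8 of GATAA, and PUT4 had the fewest, with 0 of GATAAG and 2 of GATAA. A match is a description of the letters and not a measured binding site. The windows of 7 genes overlap a neighbouring annotated gene, MEP2, PUT1 and DAL80 among them. Printed below are bases 500 to 201 before the start codon of GAP1, MEP2, PUT4, PUT1 and DAL80, a stretch chosen because it holds most of the matches. Sequences run 5′ to 3′ on the strand of the gene and come from the RefSeq genome of build R64. Capitals mark GATAA and its reverse complement TTATC.
GAP1 chrXI:514563-514862 (+ strand): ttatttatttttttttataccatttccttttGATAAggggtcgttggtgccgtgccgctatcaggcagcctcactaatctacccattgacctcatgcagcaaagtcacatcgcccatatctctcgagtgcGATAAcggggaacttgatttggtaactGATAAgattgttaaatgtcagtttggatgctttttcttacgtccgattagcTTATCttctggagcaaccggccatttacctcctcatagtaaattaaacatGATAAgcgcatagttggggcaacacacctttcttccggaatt
MEP2 chrXIV:356953-357252 (+ strand): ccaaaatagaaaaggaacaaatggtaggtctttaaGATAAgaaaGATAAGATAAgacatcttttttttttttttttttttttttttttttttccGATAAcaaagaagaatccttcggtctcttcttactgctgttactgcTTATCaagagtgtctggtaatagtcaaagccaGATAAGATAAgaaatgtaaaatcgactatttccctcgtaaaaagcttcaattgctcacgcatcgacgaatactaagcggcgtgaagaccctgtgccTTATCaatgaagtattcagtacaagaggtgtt
PUT4 chrXV:988983-989282 (- strand): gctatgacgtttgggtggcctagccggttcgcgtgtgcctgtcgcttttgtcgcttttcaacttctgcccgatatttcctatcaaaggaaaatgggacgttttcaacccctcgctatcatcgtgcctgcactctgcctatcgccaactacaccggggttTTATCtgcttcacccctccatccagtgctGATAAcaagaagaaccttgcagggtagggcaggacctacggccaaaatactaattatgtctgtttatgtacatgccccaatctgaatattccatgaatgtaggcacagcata
PUT1 chrXII:424686-424985 (+ strand): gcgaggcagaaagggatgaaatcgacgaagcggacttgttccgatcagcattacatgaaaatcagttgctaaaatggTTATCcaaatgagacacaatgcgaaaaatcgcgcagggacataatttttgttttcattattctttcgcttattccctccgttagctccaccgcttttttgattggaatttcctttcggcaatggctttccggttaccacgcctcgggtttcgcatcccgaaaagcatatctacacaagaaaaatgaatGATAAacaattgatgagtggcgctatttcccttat
DAL80 chrXI:506398-506697 (+ strand): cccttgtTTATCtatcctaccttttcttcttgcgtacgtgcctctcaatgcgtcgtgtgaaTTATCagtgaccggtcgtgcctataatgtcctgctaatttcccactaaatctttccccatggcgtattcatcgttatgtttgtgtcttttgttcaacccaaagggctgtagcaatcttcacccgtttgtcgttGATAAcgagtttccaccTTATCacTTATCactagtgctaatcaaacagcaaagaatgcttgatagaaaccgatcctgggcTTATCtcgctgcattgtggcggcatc
The site of Put3, CGG and CCG set 10 bases apart, was found before PUT1 and PUT2 and before none of the other 8 genes, against 2.67% of all genes. PUT1 holds it at 308 and at 280 bases before the start codon, and PUT2 at 166 bases. These 3 matches are shown with the outer triplets in capitals.
PUT1, chromosome XII, distance 308: CGGcaatggctttCCG
PUT1, chromosome XII, distance 280: CGGgtttcgcatcCCG
PUT2, chromosome VIII, distance 166: CGGgaagccaactCCG

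**Figure D1:**
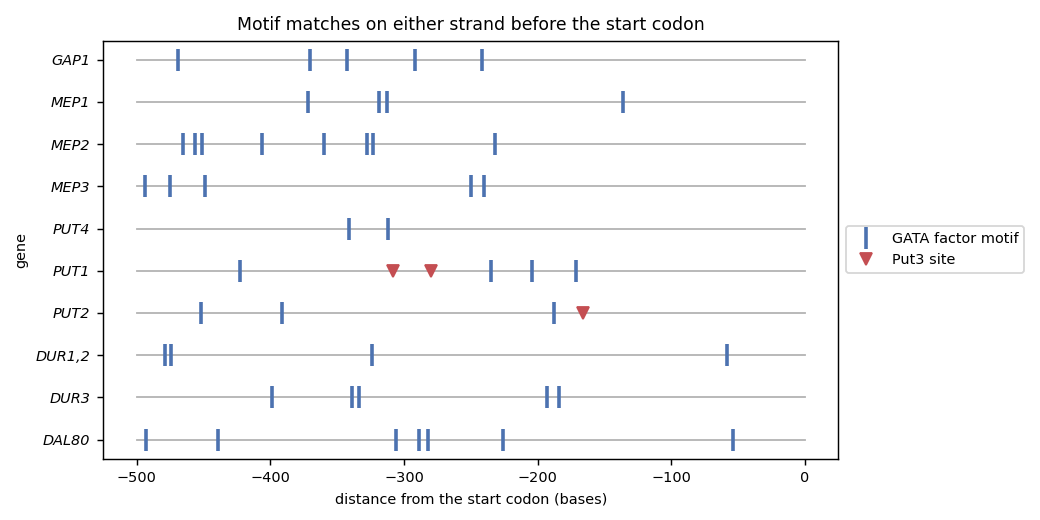
Each line is the stretch of 500 bases before the start codon of a gene, with distance in bases on the horizontal axis, blue ticks for GATAA on either strand and red triangles for the Put3 site. MEP2 carries 8 ticks and PUT4 carries 2, and triangles appear before PUT1 and PUT2.

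Across the group, LP118 stood low and PUT4 and PUT1 moved the most with time in LP085-Vc and LP104-17. Of the 10 genes, 9 were lower in LP118 than in LP085-Vc at 6 h, where 33.8% of all tested genes were lower. The levels of PUT4 and PUT1 spanned 184-fold and 72.6-fold between the lowest and highest group. The other 8 genes spanned between 2.45-fold for MEP3 and 15.6-fold for MEP2. On the authors' FPKM scale, which divides by coding length, the highest of the 10 genes in LP085-Vc was GAP1 at 6 h (324 ± 48.8, SD, n = 3) and PUT4 at 24 h (667 ± 24.7). In LP118 it was MEP3 at 6 h (116 ± 10.5) and GAP1 at 24 h (188 ± 9.67), where MEP3 at 173 ± 12.9 was close to it. DAL80 was the lowest of the 10 in every group, between 1.62 and 17.6 FPKM.

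**Figure D2:**
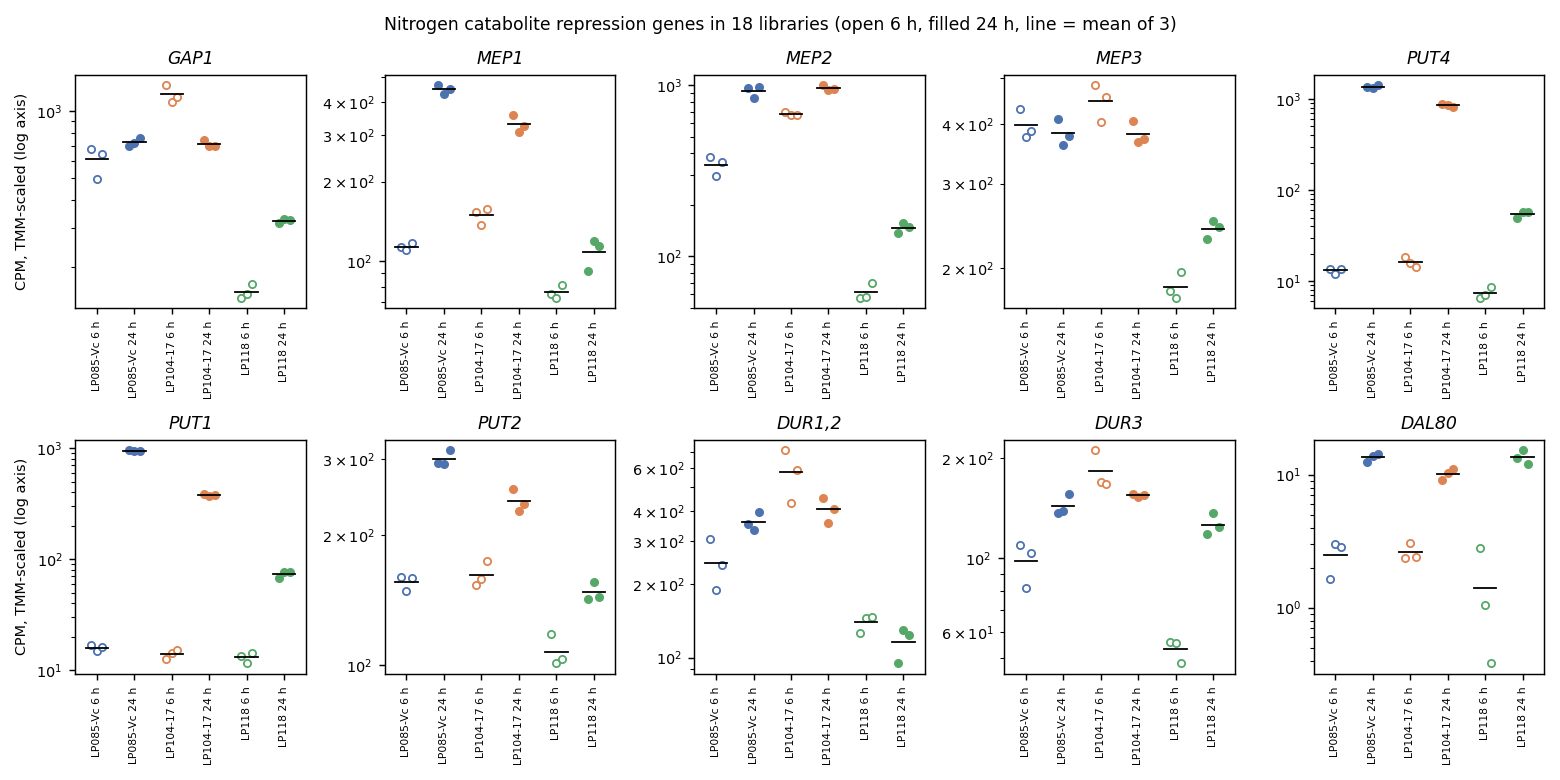
TMM-scaled CPM on log axes for each of the 10 genes, 1 point per library, open at 6 h and filled at 24 h, with a line at the mean of 3 libraries. GAP1, MEP1, MEP2 and MEP3 are low in LP118, and PUT4 and PUT1 rise from 6 h to 24 h in every strain.

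GAP1 (chromosome XI, 515063 to 516871, plus strand, a single coding exon) encodes the general amino acid permease, which takes up most amino acids when nitrogen is poor. At 6 h its libraries read 679, 498 and 645 CPM in LP085-Vc, 1311, 1097 and 1163 CPM for LP104-17 and 145, 151 and 168 CPM for LP118. The groups did not overlap, and LP104-17 was highest. GAP1 was higher in LP104-17 than in LP085-Vc by 0.97 ± 0.10 (adjusted p = 1.88e-06) and lower in LP118 by -1.97 ± 0.11 (adjusted p = 3.58e-12). At 24 h the libraries read 698, 723 and 761 CPM in LP085-Vc, 745, 700 and 701 CPM for LP104-17 and 314, 327 and 326 CPM for LP118. LP085-Vc and LP104-17 then overlapped, with a log2 fold change of -0.02 ± 0.10 (adjusted p = 0.867), and LP118 stayed below both, at -1.17 ± 0.10 against LP085-Vc.

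GAP1 moved in a different direction with time in LP104-17 than in the other strains. It fell by 0.73 on the log2 scale in LP104-17 (SE 0.10, adjusted p = 2.73e-06), rose by 1.06 ± 0.11 in LP118 and rose by 0.26 ± 0.10 in LP085-Vc (adjusted p = 0.0267). The change was lower in LP104-17 than in LP085-Vc by -0.99 ± 0.14 and higher in LP118 than in LP104-17 by 1.79 ± 0.15. The small rise in LP085-Vc rests on single libraries: the adjusted p was 0.187 without LP085-Vc 6 h replicate 2, where the change was 0.14, and 0.0859 without LP085-Vc 24 h replicate 3.

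MEP1, MEP2 and MEP3 encode the ammonium permeases, of which Mep2 has the highest affinity and also acts as a nitrogen sensor for filamentous growth. MEP1 lies on chromosome VII (731449 to 732927), MEP2 on XIV (357453 to 358952) and MEP3 on XVI (810984 to 812453). Mep1 and Mep3 share 77.4% of aligned residues, while Mep2 shares 39.5% with Mep1 and 37.6% with Mep3. The longest identical stretch of coding bases is 20 between MEP1 and MEP3 and shorter in the other pairs.

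MEP2 had the widest strain difference of the 3. At 6 h it read 381, 296 and 355 CPM in LP085-Vc, 698, 675 and 667 CPM for LP104-17 and 57.3, 58.3 and 70.1 CPM for LP118. LP104-17 was above LP085-Vc by 0.98 ± 0.10 (adjusted p = 1.09e-06) and LP118 below it by -2.47 ± 0.11 (adjusted p = 1.52e-13), with no overlap. At 24 h LP118 read 137, 156 and 148 CPM, while LP085-Vc read 963, 844 and 981 and LP104-17 read 1003, 940 and 955. The difference between the latter strains was then 0.06 ± 0.10 (adjusted p = 0.658), and their libraries overlapped. MEP2 rose with time in all 3 strains, by 1.43 ± 0.10 for LP085-Vc, 0.51 ± 0.10 for LP104-17 and 1.25 ± 0.11 for LP118.

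MEP1 was the ammonium permease gene that rose most with time in LP085-Vc, from 113, 110 and 117 CPM at 6 h to 464, 431 and 448 CPM at 24 h, a change of 1.98 ± 0.10 (adjusted p = 5.91e-13). In LP104-17 it went from 154, 137 and 158 CPM to 357, 309 and 324 CPM. In LP118 it went from 75.0, 72.6 and 81.0 CPM to 91.4, 119 and 114 CPM, a rise of 0.50 ± 0.10 (adjusted p = 0.000279). The rise was smaller in LP118 than in LP085-Vc by -1.48 ± 0.14 (adjusted p = 2.72e-08). Its level in LP118 at 24 h overlapped that in LP085-Vc at 6 h.

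MEP3 had the narrowest span of the 10 genes. LP085-Vc read 430, 375 and 386 CPM at 6 h and 409, 361 and 378 CPM at 24 h, a change of -0.05 ± 0.09 (adjusted p = 0.587). LP118 read 179, 173 and 196 CPM at 6 h and 230, 250 and 243 CPM at 24 h. LP118 lay below LP085-Vc at both times, by -1.12 ± 0.09 and -0.67 ± 0.09 (adjusted p = 1.65e-09 and 1.24e-06), without overlap. In LP104-17 it fell from 447 ± 40.0 to 382 ± 21.8 CPM (-0.23 ± 0.09, adjusted p = 0.0271). That call was lost without LP104-17 6 h replicate 1 or 3 or LP104-17 24 h replicate 2 or 3, with adjusted p between 0.0735 and 0.128.

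PUT4, PUT1 and PUT2 encode the proline permease, the mitochondrial proline oxidase that starts proline breakdown, and the dehydrogenase that completes the conversion to glutamate. PUT4 (chromosome XV, 986899 to 988782) read 13.8, 11.9 and 13.8 CPM in LP085-Vc at 6 h and 1360, 1324 and 1415 CPM at 24 h. In LP104-17 it went from 18.4, 15.8 and 14.5 CPM to 881, 861 and 819 CPM. LP118 went from 6.58, 7.05 and 8.61 CPM to 48.9, 57.2 and 58.2 CPM. PUT4 rose in all 3 strains without overlap between times, by 6.70 ± 0.12 in LP085-Vc, then 5.72 ± 0.11 and 2.88 ± 0.13 (adjusted p = 3.08e-19, 1.73e-18 and 6.13e-13). The rise was smaller in LP118 than in LP085-Vc by -3.82 ± 0.18 and than in LP104-17 by -2.84 ± 0.18 (adjusted p = 1.30e-12 and 1.02e-10).

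PUT1 (chromosome XII, 425186 to 426616) showed the same order of strains at 24 h as PUT4. At 6 h it read 16.8, 14.9 and 16.2 CPM in LP085-Vc, 12.6, 14.3 and 15.3 CPM for LP104-17 and 13.4, 11.6 and 14.4 CPM for LP118. Neighbouring strains overlapped at 6 h. At 24 h PUT1 read 956, 948 and 951 CPM in LP085-Vc, 387, 373 and 377 CPM for LP104-17 and 68.5, 76.5 and 76.5 CPM for LP118, with wide gaps between the strains. LP104-17 was below LP085-Vc by -1.33 ± 0.08 (adjusted p = 4.76e-11) and LP118 by -3.69 ± 0.09 (adjusted p = 1.27e-17). The difference between LP118 and LP085-Vc at 6 h, -0.28 ± 0.11, had an adjusted p of 0.0467. It was no longer called without any 1 of LP085-Vc 6 h replicates 1, 2 and 3 or LP118 6 h replicates 1 and 2, where it ran from -0.30 to -0.18 with adjusted p between 0.0573 and 0.278, nor with DESeq2 (adjusted p = 0.0877).

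PUT2 (chromosome VIII, 181977 to 183704) moved far less than the other proline genes. It went from 160, 148 and 159 CPM to 294, 292 and 314 CPM in LP085-Vc, a rise of 0.95 ± 0.08 (adjusted p = 3.86e-09). LP104-17 rose from 153, 158 and 174 CPM to 255, 227 and 236 CPM, and LP118 from 118, 101 and 103 CPM to 142, 156 and 144 CPM. At 24 h the strains did not overlap and stood in the same order as for PUT4 and PUT1. LP118 was lower than LP085-Vc by -0.53 ± 0.09 at 6 h and by -1.02 ± 0.08 at 24 h.

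**Figure D3:**
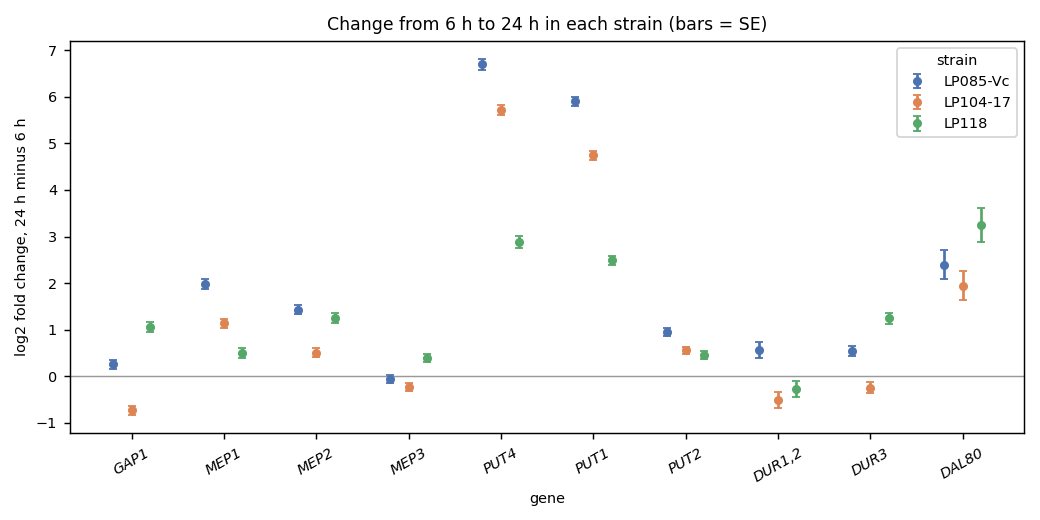
Log2 fold change from 6 h to 24 h for each gene in LP085-Vc, LP104-17 and LP118, with bars of 1 SE. PUT4 ranges from 2.88 in LP118 to 6.70 in LP085-Vc, and GAP1 lies below 0 in LP104-17 and above 0 in the other strains.

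DUR1,2 and DUR3 serve the use of urea: the first encodes urea amidolyase, which splits urea to ammonia and carbon dioxide, and the second a urea and polyamine transporter of the plasma membrane. DUR1,2 (chromosome II, 636703 to 642210) read 307, 189 and 240 CPM in LP085-Vc, 707, 429 and 590 CPM for LP104-17 and 126, 146 and 147 CPM for LP118 at 6 h. The groups did not overlap despite the wide spread within LP104-17. DUR1,2 was higher in LP104-17 than in LP085-Vc by 1.23 ± 0.17 (adjusted p = 6.49e-05) and lower in LP118 than in LP085-Vc by -0.81 ± 0.18 (adjusted p = 0.000524). At 24 h it read 353, 333 and 397 CPM in LP085-Vc, 453, 358 and 405 CPM for LP104-17 and 94.9, 130 and 124 CPM for LP118. LP118 was then lower than LP085-Vc by -1.64 ± 0.18, and LP085-Vc and LP104-17 overlapped (0.17 ± 0.17, adjusted p = 0.441). The fall with time in LP104-17, -0.50 ± 0.17 (adjusted p = 0.0139), was not called without LP104-17 6 h replicate 1 (-0.33, adjusted p = 0.108) or LP104-17 24 h replicate 2 (-0.42, adjusted p = 0.0643).

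DUR3 (chromosome VIII, 72037 to 74244) differed between strains mainly at 6 h. It read 110, 81.4 and 104 CPM in LP085-Vc, 211, 170 and 167 CPM for LP104-17 and 55.9, 55.8 and 48.4 CPM for LP118. LP104-17 was higher than LP085-Vc by 0.89 ± 0.11 (adjusted p = 1.34e-05) and LP118 lower by -0.88 ± 0.12 (adjusted p = 1.99e-06), with no overlap. At 24 h the libraries read 137, 139 and 156 CPM in LP085-Vc, 156, 153 and 155 CPM for LP104-17 and 118, 137 and 124 CPM for LP118. LP118 and LP085-Vc then touched at 137 CPM, and their difference of -0.19 ± 0.11 was not called (adjusted p = 0.131). DUR3 rose in LP118 by 1.25 ± 0.12, a larger change than in LP104-17 by 1.49 ± 0.16 (adjusted p = 2.74e-07). The difference between LP118 and LP104-17 at 24 h, -0.29 ± 0.11 (adjusted p = 0.0259), was not called without LP104-17 24 h replicate 1 or 3 or LP118 24 h replicate 1 or 3, with adjusted p between 0.0557 and 0.112.

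DAL80 (chromosome XI, 506898 to 507707), the gene of a GATA repressor that is itself under nitrogen catabolite repression, was scarce. Its counts at 6 h were 10, 20 and 22 in LP085-Vc, 13, 23 and 16 for LP104-17 and 14, 5 and 2 for LP118. At 24 h they were 80, 93 and 92 in LP085-Vc, 57, 74 and 77 for LP104-17 and 87, 110 and 76 for LP118. DAL80 rose with time in every strain without overlap, by 2.40 ± 0.32, 1.95 ± 0.32 and 3.25 ± 0.36 (adjusted p = 1.08e-06, 2.16e-05 and 4.02e-07). In the main fit no difference between strains at a single time was called. At 6 h this rested on single libraries and on the method. With limma on log2(FPKM + 1), LP118 was called lower than LP085-Vc (-0.72, adjusted p = 0.0397) and than LP104-17 (-0.82, adjusted p = 0.0247). In edgeR, LP118 against LP085-Vc stood at -0.85 ± 0.43 (adjusted p = 0.0905) with all libraries. The value was -1.83 (adjusted p = 0.00192) without LP118 6 h replicate 1, which held 14 counts. It was -1.03 (adjusted p = 0.0491) without LP085-Vc 6 h replicate 1, and against LP104-17 it was -1.88 (adjusted p = 0.00169) without that LP118 library. The same library kept the change over time of LP118 against LP085-Vc uncalled (0.85 ± 0.51, and 1.83 without it, adjusted p = 0.00486). The larger rise in LP118 than in LP104-17, 1.31 ± 0.51 (adjusted p = 0.0398), was not called in 7 of the fits that leave out 1 library, with adjusted p between 0.0551 and 0.138. Those libraries were LP104-17 6 h replicate 2, LP104-17 24 h replicates 1 and 2, LP118 6 h replicates 2 and 3 and LP118 24 h replicates 1 and 2. Without LP118 6 h replicate 3 the value was 0.85.

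**Figure D4:**
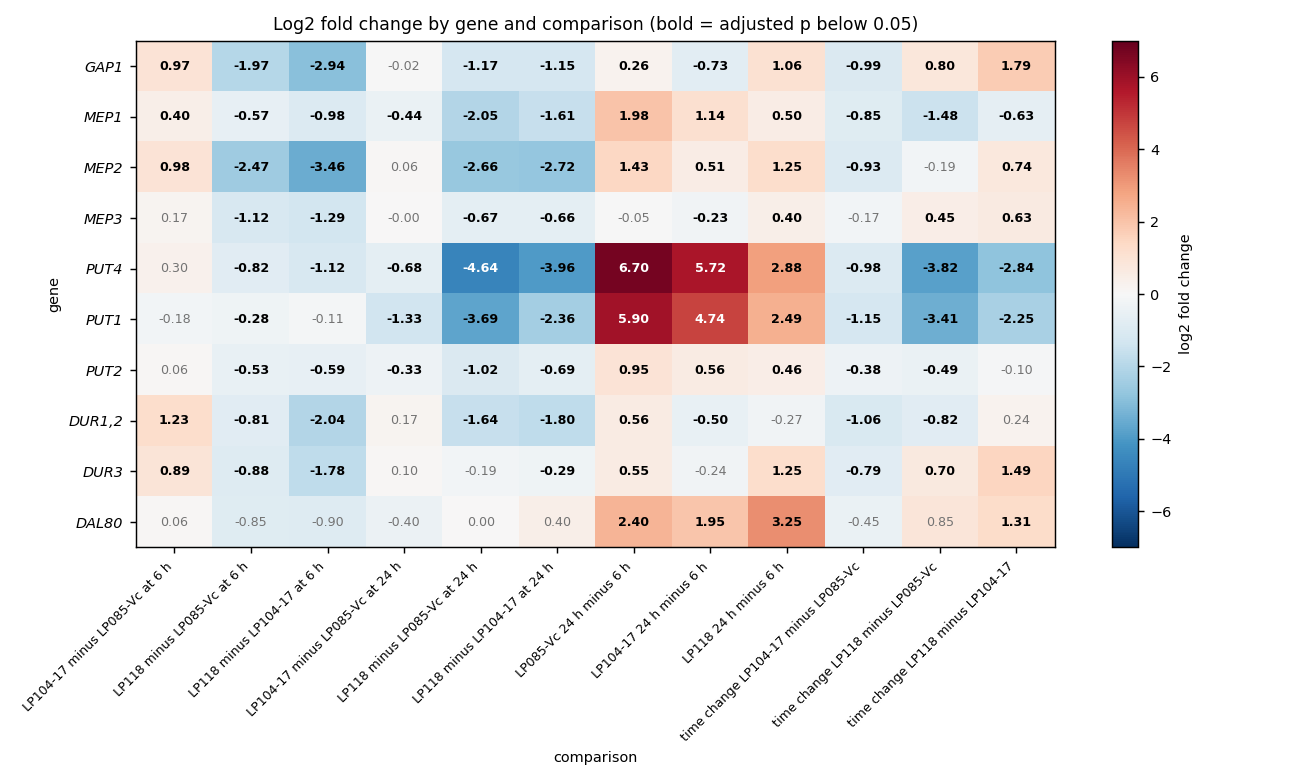
Log2 fold changes of the 10 genes in the 6 strain comparisons, the 3 changes over time and the 3 differences between strains in that change, with bold numbers at an adjusted p below 0.05. In the strain comparisons of LP118 the values of 8 or 9 genes are bold and below 0, and PUT4 and PUT1 hold the largest values in the LP085-Vc and LP104-17 time columns.

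Set beside all genes, the counts read as follows. At 6 h, 5 of the 10 genes were higher in LP104-17 than in LP085-Vc and 0 lower, where 5.79% of all tested genes were higher and 5.76% lower. The 5 were GAP1, MEP1, MEP2, DUR1,2 and DUR3, and the median log2 fold change was 0.35 against 0.00 over all genes. Fold changes tracked coding length across genes in this comparison (Spearman's rho 0.28 over 6131 genes that are not independent replicates), longer genes being the higher. With that trend removed the same 5 genes were called, at values from 0.40 for MEP1 to 0.98 for MEP2 and DUR1,2, the latter the longest of the 10 genes and at 1.23 before. Without being called, the proline genes stood at 0.30 ± 0.12 for PUT4, -0.18 ± 0.11 for PUT1 and 0.06 ± 0.08 for PUT2. LP118 had 0 higher and 9 lower than LP085-Vc, with 32.2% of all genes higher and 33.8% lower, and a median of -0.83 against -0.04. Against LP104-17 it had 0 higher and 8 lower, with 28.7% and 29.8% of all genes, and a median of -1.21 against -0.03. Of the 10 genes, DAL80 was not called in either comparison, and PUT1 was not called against LP104-17 (-0.11 ± 0.11). Fold changes also tracked coding length in these LP118 comparisons at 6 h (rho 0.19 against LP085-Vc and 0.13 against LP104-17). With that trend removed in edgeR, 8 genes were lower in each, and PUT1 was not called against LP085-Vc (adjusted p = 0.0698).

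At 24 h, LP104-17 had 0 of the 10 genes higher than LP085-Vc and 4 lower, where 25.1% of all genes were higher and 27.4% lower. The 4 lower genes were the 3 proline genes and MEP1, and the median was -0.18 against -0.05. LP118 had 0 higher and 8 lower than LP085-Vc, against 38.5% and 39.2% of all genes, with a median of -1.41 against -0.01. Against LP104-17 it had 0 higher and 9 lower, against 35.0% and 33.6% of all genes, with a median of -1.38 against 0.03. The comparisons at a given time share libraries, so the low level of LP118 against both strains rests on the same 3 LP118 libraries.

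From 6 h to 24 h, 9 of the 10 genes rose in LP085-Vc and 0 fell, against 37.9% and 38.3% of all genes. In LP104-17, 6 rose and 3 fell, against 35.2% and 35.7%, and the 3 became 1 without LP104-17 6 h replicate 1 or without LP104-17 24 h replicate 2. In LP118, 9 rose and 0 fell, against 26.6% and 30.5%. The medians were 1.19, 0.54 and 1.15, against 0.00, 0.00 and -0.05 over all genes. GAP1, MEP3 and DUR1,2 were the genes that fell in LP104-17, and the libraries of MEP3 and DUR1,2 overlapped between the times. The gene not called was MEP3 in LP085-Vc, DUR3 in LP104-17 (-0.24 ± 0.11, adjusted p = 0.0566, called without LP104-17 6 h replicate 2 or 3) and DUR1,2 in LP118 (-0.27 ± 0.18, adjusted p = 0.212).

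The change over time was lower in LP104-17 than in LP085-Vc for 8 of the 10 genes and higher for 0, where 15.3% of all genes were lower and 17.8% higher. MEP3 and DAL80 were the genes not called. In LP118 against LP085-Vc, 3 of the 10 were higher (GAP1, MEP3 and DUR3) and 5 lower (MEP1, PUT4, PUT1, PUT2 and DUR1,2), against 30.5% and 29.6% of all genes; on log2(FPKM + 1) with limma PUT2 and DUR1,2 were not called, which left 3 lower. In LP118 against LP104-17, 5 were higher (GAP1, MEP2, MEP3, DUR3 and DAL80) and 3 lower (MEP1, PUT4 and PUT1), against 24.5% and 25.3% of all genes. The proline genes PUT4 and PUT1 and the permease gene GAP1 thus stood on opposite sides in both comparisons of LP118.

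Likeness of profile was measured over the 6 group means as the root mean square difference of log2 CPM after each gene was centred on its own mean. Among the 10 genes, MEP3 and DUR3 were the most alike (0.35) and MEP3 and PUT4 the least (2.80). Of 5032 genes searched, those nearest to GAP1 were SPC25 (0.32), AGP1 (0.35) and CHO1 (0.36), and those nearest to MEP2 were YPS6 (0.49), AGP1 (0.50) and YAP1 (0.52). AGP1, a broad amino acid permease gene, was on both lists. HXT5 (0.29), SUE1 (0.39) and SSA3 (0.42) were nearest to PUT1. CAN1 (0.27), SER3 (0.35) and MNN1 (0.36) were nearest to DUR1,2. SPC25, CHO1, CAN1, SER3 and MNN1 lie on chromosome V and YPS6 on chromosome IX, where LP118 was shifted as a whole.

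Other genes under the same control were counted from a list of 23, of which 19 were tested. The other 4, the near-identical asparaginase genes ASP3-1 to ASP3-4, are listed at 0 in every library. At 6 h, 9 of the 19 were lower in LP118 than in LP085-Vc and 6 higher, where 33.8% of all genes were lower and 32.2% higher. A separate fit without chromosomes V and IX called 1847 of the remaining genes lower and 1763 higher at 6 h. The list without these chromosomes was counted from the fit of all genes. There, 7 of 12 tested genes were lower at 6 h and 2 higher. For all genes on all chromosomes the shares were 33.8% and 32.2%. The 4 largest changes were in OPT2 (-2.64 ± 0.13), a peptide transporter gene, AGP1 (-2.31 ± 0.10), UGA2 of GABA breakdown (-1.69 ± 0.10) and CAR1, the arginase gene (1.64 ± 0.09). At 24 h, 15 were lower and 3 higher, against 39.2% and 38.5% of all genes, with a median of -0.85 against -0.01. The 3 higher genes were the allantoin genes DAL1 (1.89 ± 0.17), DAL4 (2.43 ± 0.17) and DAL7 (3.44 ± 0.14), all on chromosome IX. Leaving out both chromosomes, 11 of 12 tested genes of the list were lower at 24 h and 0 higher. For all genes on all chromosomes the shares at 24 h were 39.2% and 38.5%. The separate fit without these chromosomes called 2160 of the remaining genes lower and 2173 higher at 24 h. DAL2 and DAL3, also on chromosome IX, were lower at 24 h by -0.40 ± 0.10 and -0.44 ± 0.16.

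**Figure D5:**
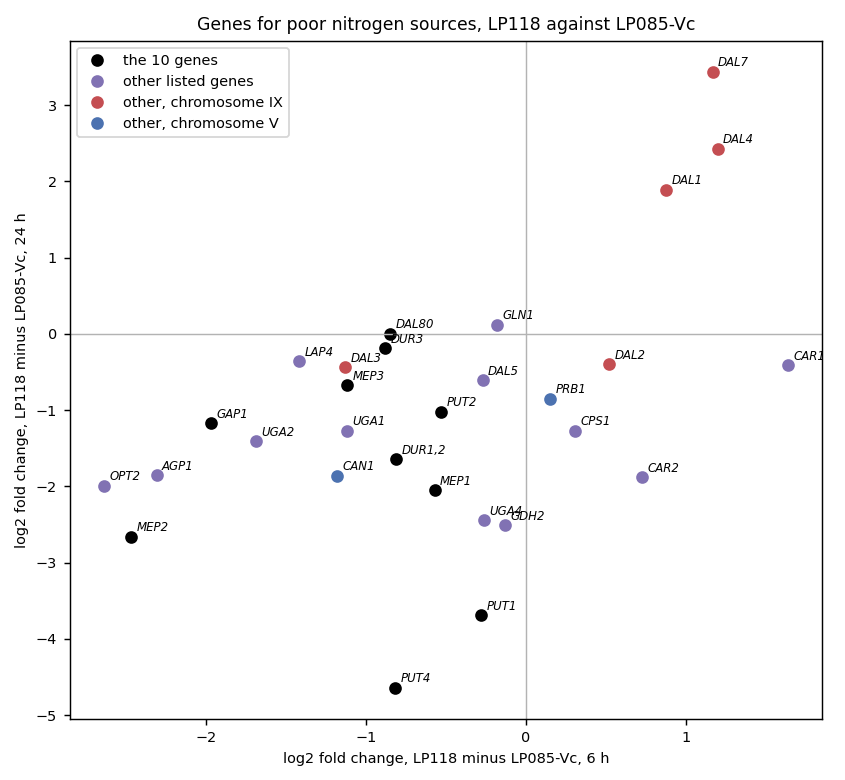
Log2 fold change of LP118 against LP085-Vc at 6 h (horizontal) and at 24 h (vertical) for the 10 genes and for 19 other genes under nitrogen catabolite repression, coloured by chromosome. DAL1, DAL4 and DAL7 of chromosome IX lie at the upper right, and MEP2, PUT4 and PUT1 lie lowest.

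With time, 13 of the 19 listed genes rose and 4 fell in LP085-Vc, where 37.9% of all genes rose and 38.3% fell. In LP104-17, 10 rose and 5 fell, with 35.2% and 35.7% of all genes, and in LP118, 13 rose and 3 fell, with 26.6% and 30.5%. UGA4, a GABA permease gene, rose by 3.65 ± 0.13 for LP085-Vc, 3.24 ± 0.13 for LP104-17 and 1.46 ± 0.14 for LP118. GDH2, the glutamate dehydrogenase that releases ammonium from glutamate, rose by 3.21 ± 0.10, 2.65 ± 0.09 and 0.83 ± 0.09. The rise was smaller in LP118 than in LP085-Vc for both genes, by -2.18 ± 0.20 for UGA4 and -2.38 ± 0.13 for GDH2. At 6 h, 4 of the 19 were higher in LP104-17 than in LP085-Vc and 0 lower, against 5.79% and 5.76% of all genes: OPT2 (0.87 ± 0.11), CAR1 (0.54 ± 0.09), the glutamine synthetase gene GLN1 (0.53 ± 0.06) and the arginine permease gene CAN1 (0.39 ± 0.11).

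Of 16 genes for GATA factors and other regulators, 1 was lower and 0 higher in LP104-17 than in LP085-Vc at 6 h, against 5.76% and 5.79% of all genes. The lower gene was AMU1 (-0.26 ± 0.08, adjusted p = 0.0420). GAT1, one of the activators, was lower in LP118 than in LP085-Vc, by -1.27 ± 0.14 at 6 h and -0.73 ± 0.14 at 24 h. It stood at 210 ± 37.6 CPM in LP085-Vc and 87.1 ± 7.05 in LP118 at 6 h. GLN3, on chromosome V, was lower by -0.47 ± 0.15 and -1.19 ± 0.15. URE2, the gene of the protein that retains Gln3, was called in none of the 12 comparisons. PUT3, the activator gene of the proline pathway, was higher in LP118 than in LP085-Vc at both times. The differences were 1.10 ± 0.13 at 6 h and 1.39 ± 0.13 at 24 h. PUT4 was lower in LP118 at both times. PUT1 was lower by -3.69 ± 0.09 at 24 h, while its call at 6 h (-0.28 ± 0.11) was lost when single libraries were left out. In LP118 against LP085-Vc, 5 regulators were higher and 5 lower at 6 h, shares near those of all genes (32.2% and 33.8%). At 24 h 3 were higher and 9 lower, against 38.5% and 39.2% of all genes. Without chromosomes V and IX, 13 regulators remained. Of these, 4 were higher and 3 lower at 6 h, and 2 higher and 7 lower at 24 h.

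Ammonium assimilation, counted over 5 genes that include GDH2 and GLN1 again, had 1 gene higher and 3 lower in LP118 than in LP085-Vc at 24 h, against 38.5% and 39.2% of all genes. GDH3, a glutamate dehydrogenase isoenzyme that makes glutamate from ammonium, was lower by -4.49 ± 0.14, at 130 ± 7.92 CPM against 2912 ± 83.8 CPM. GDH1, the other isoenzyme, was higher by 0.37 ± 0.08. Of 14 genes for permeases under the SPS sensor, for the sensor and for its factors STP1 and STP2, 5 were higher and 9 lower in that comparison. The share that was higher was near that of all genes. This list includes the peptide transporter gene PTR2 and counts AGP1 again. In LP104-17 against LP085-Vc at 6 h, 2 were higher and 3 lower, against 5.79% and 5.76% of all genes.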

How the data were processed

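RNA-seq tables of 18 libraries were used, 3 for each of 3 strains at 6 h and 24 h. Each table gives 6600 genes with the raw count that the authors deposited, per the file headers, and an FPKM value, which the authors computed per the file headers and which equals count over length over a library denominator to within 3.5e-08. The submitters' processing notes name Bowtie2 2.2.5 and genome build R64. How reads were counted, and whether strand was used, is not given in the sources used here. None of the 10 genes overlaps another annotated gene.

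Counts were fitted in edgeR 4.0.16 (R 4.3.3), with a mean for each group over all 18 libraries, TMM scaling (factors 0.914 to 1.11) and filterByExpr (minimum count 10, minimum total 15), which kept 6131 genes and removed 469. There were 12 residual degrees of freedom. The coefficient of variation between libraries, which edgeR calls biological, was 11.2%. Quasi-likelihood tests were two-sided, with Benjamini-Hochberg adjustment over all tested genes of each of 12 comparisons. Fold changes use a prior count of 0.125. The procedure was also run on simulated counts with independent libraries and far fewer changed genes than here, so that run does not vouch for these data. Libraries within a group differed by more than counting error (chi-square per degree of freedom 3.12 to 27.6). Each was counted as its own sample, although such a spread does not show that they were separate cultures.

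Alternatives were DESeq2 1.42.0, its size factors in edgeR, no filter, limma 3.58.1 on log2(FPKM + 1) and log2(FPKM + 0.1), a replicate block, removal of a coding length trend, removal of chromosomes V and IX, a fit of only the groups compared, and leaving out each library. Motifs were searched with Python 3.11.15 and proteins aligned with Biopython 1.88, from RefSeq R64; of the 6600 identifiers, 5917 matched the reference. The members, the other gene lists and the rules were chosen with earlier results of these data known. All 10 members are named. For the other lists, values are given for some regulators and for some of the 4 largest called changes of a list in a comparison. Values of DAL1, DAL2 and DAL3 at 24 h were added after they were seen. Nearest profiles are the 3 closest genes with a symbol other than the systematic identifier and a mean of at least 10 CPM.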

Additional observations from a re-analysis of the deposited data

Results flagged for a closer look

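The change from 6 h to 24 h differed between strains, by the test of that difference in edgeR's quasi-likelihood fit, for the values given here as log2 differences. LP104-17 minus LP085-Vc was -0.99 for GAP1, -0.85 for MEP1, -0.93 for MEP2, -0.98 for PUT4, -1.15 for PUT1, -0.38 for PUT2, -1.06 for DUR1,2 and -0.79 for DUR3. LP118 minus LP085-Vc was 0.80 for GAP1, -1.48 for MEP1, 0.45 for MEP3, -3.82 for PUT4, -3.41 for PUT1, -0.49 for PUT2, -0.82 for DUR1,2 and 0.70 for DUR3. LP118 minus LP104-17 was 1.79 for GAP1, -0.63 for MEP1, 0.74 for MEP2, 0.63 for MEP3, -2.84 for PUT4, -2.25 for PUT1, 1.49 for DUR3 and 1.31 for DAL80. Each comparison shares libraries with the other comparisons. The PUT2 difference of LP104-17 minus LP085-Vc was not called without LP085-Vc 6 h replicate 2 (adjusted p = 0.0512), nor without replicate 3 of LP085-Vc at 24 h (0.0515) or of LP104-17 at 6 h (0.0591).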

How the results depend on the processing

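The total of the 10 genes called in a comparison, both directions together, stayed within 1.5 times its main value in all 198 alternative counts. Most main totals were 8 or 9 of the 10 genes and cannot rise past that bound, so only a large fall could show. By direction, the 3 lower genes of LP104-17 over time became 1 without LP104-17 6 h replicate 1 or 24 h replicate 2, and the 5 lower genes of LP118 minus LP085-Vc in change over time became 3 with limma on either FPKM scale. In these alternatives no fold change of the 10 genes changed sign while called. Of the values of single genes, 1918 kept their side of the threshold, 49 lost the call and 13 gained it. Calls gained through the setting rather than a left-out library were those of DAL80, DUR3 and DUR1,2. The lost calls that rest on the setting rather than on a left-out library were those of PUT1, GAP1, MEP3, PUT2, DUR1,2, DUR3 and DAL80, with adjusted p between 0.0541 and 0.200. On log2(FPKM + 1), PUT2 was not called in LP104-17 against LP085-Vc at 24 h (-0.18, adjusted p = 0.0884) and GAP1 was not called over time in LP085-Vc (0.20, adjusted p = 0.0846). The fits on FPKM differ from the main one in both scaling and test. They shifted the median of all genes by up to 0.25 (LP118 against LP085-Vc, change over time). On log2(FPKM + 1) the split of higher and lower genes went to 401 and 262 from 355 and 353 in LP104-17 against LP085-Vc at 6 h, to 1897 and 1052 from 1541 and 1681 at 24 h, and to 2182 and 1212 from 1630 and 1872 over time in LP118. For differences in change over time it moved to 1292 and 545 from 1092 and 940 (LP104-17 minus LP085-Vc), 2387 and 1208 from 1872 and 1815 (LP118 minus LP085-Vc) and 1845 and 1178 from 1504 and 1552 (LP118 minus LP104-17). The genes called in LP104-17 against LP085-Vc at 6 h were 355 higher and 353 lower in the fit of all groups, 165 and 179 with only the groups compared, and 608 and 598 without LP104-17 6 h replicate 2; the cause was not tested. Equal replicate numbers did not pair the libraries across all groups: in 0 of 15 pairs of groups were all 3 correlations over 0.1. Of 18 libraries, 5 correlated best with their own number. Between LP085-Vc and LP104-17 at 6 h the correlations were 0.43 and 0.65 for replicates 1 and 2 and -0.32 for replicate 3. Whether libraries of equal number there share a source was not tested. The replicate block moved only 1 call, the DAL80 difference in change over time between LP118 and LP104-17 (1.29, adjusted p = 0.0541). Low counts limit DAL80 at 6 h, where libraries held 2 to 23 counts.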
